A study of Mus musculus with 6 samples.

Results

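The GATA factors, the ONECUT factors and PROX1 are transcription factors of several lineages, with early endoderm and pancreas among them. They were examined here in a mouse embryonic stem cell line and a mouse β-cell line. The members were Gata2, Gata3, Gata4, Gata5, Gata6, Onecut1, Onecut2 and Prox1, taken as all probes whose gene symbol in the array's annotation is 1 of these 8 names. This gave 11 of the 45281 probes on the array, for 7 of the 19057 genes with a named probe. Onecut1 had no named probe and was not analysed here. Total RNA came from 3 samples of D3 cells, a pluripotent ES cell line cultured with leukemia inhibitory factor and serum on gelatin (passage 21), and from 3 samples of MIN6 cells, an insulinoma line that secretes insulin (passage 23). Neither line carried a further treatment, and each is a single line, MIN6 being a tumor line and not primary β-cells. Each RNA was read on its own Illumina expression array (Mouse WG-6 v2.0).

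GATA factors are zinc finger proteins named after the GATA sequence they bind. Gata1, Gata2 and Gata3 are best known from blood, trophoblast and the nervous system, and Gata4, Gata5 and Gata6 from endoderm and heart. Gata6 directs formation of the primitive endoderm of the embryo, and Gata4 and Gata6 are needed for growth of the pancreas. Onecut1 (also called HNF6) and Onecut2 carry a cut domain and a homeodomain, and Onecut1 acts upstream of Neurog3 in pancreatic progenitors. Prox1, a divergent homeodomain factor, sets lymphatic endothelial identity and is also used by liver, pancreas and neurons. In the study, Gata4 served as a marker of ES cell differentiation.

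Promoter sequence is shown for Gata2 and Prox1, a member that was lower and a member that was higher in MIN6 cells, to show the CpGs that the windows of the members have in common. These arrays carry no reading of chromatin or DNA methylation. Each run is the 250 bases before the annotated start at the edge of the gene, from RefSeq on GRCm38.p6, written 5′ to 3′ on the strand of the gene, with every CpG in capitals. The Gata2 run lies at chr6:88193641-88193890 on the plus strand and the Prox1 run at chr1:190170828-190171077 on the minus strand.
Gata2: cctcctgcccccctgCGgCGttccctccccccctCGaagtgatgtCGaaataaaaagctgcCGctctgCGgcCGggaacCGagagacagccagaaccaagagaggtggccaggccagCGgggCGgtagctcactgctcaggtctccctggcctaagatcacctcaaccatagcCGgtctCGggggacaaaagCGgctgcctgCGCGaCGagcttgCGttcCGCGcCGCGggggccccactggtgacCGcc
Prox1: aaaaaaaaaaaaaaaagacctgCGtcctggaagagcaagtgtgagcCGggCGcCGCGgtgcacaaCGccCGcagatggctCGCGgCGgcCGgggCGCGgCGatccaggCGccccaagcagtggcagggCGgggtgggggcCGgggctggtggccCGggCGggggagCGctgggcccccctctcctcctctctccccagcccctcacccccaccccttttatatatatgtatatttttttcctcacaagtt

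The Gata2 run holds 22 CpGs and the Prox1 run 20. Over windows of 300 bases, which add the 50 bases after the start, the promoter table has 7 windows for 5 of the members (Gata2, Gata3, Gata5, Onecut1 and Prox1), with 14 to 38 CpGs each against a median of 7 over all 32851 windows. The window at the edge of the Gata2 gene, with 32 CpGs, holds more than 90.5% of all windows do, and that of Prox1, with 25, more than 81.6%. Gata3 and Gata5, which were not above background in either line, have windows with 22 and 26 CpGs, neither at the edge of its gene. Windows with more CpGs than the median were thus seen for members with and without detected signal. Whether CpG number goes with signal was not tested. The GATA motif (GATA preceded by A or T and followed by A or G, on either strand) is in 1 of the 7 member windows, that of Gata3, and in 29.8% of all windows. The ONECUT motif ATTGAT, searched on both strands and able to overlap a GATA motif by its last letters, is in none of the 7 and in 7.54% of all windows. These matches describe the letters only.

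Quantile normalization put the 6 arrays on a common scale, and limma then tested MIN6 minus D3 for each probe on log2 signals. A call required both an adjusted p below 0.05, with the Benjamini-Hochberg procedure run on all 45281 probes, and a difference of 1.5-fold or more. A detection p below 0.01 defined a signal above background. If none of the arrays of a line reached it, the text gives "at least" and a bound, in which the dimmest detected signal of each such array stands in for the probe. Each array detected between 34.4 and 35.9% of its probes. Across probes, the arrays of a line correlated at r = 0.993 to 0.994, and those of different lines at r = 0.836 to 0.838. All 10 ES cell identity genes examined (Nanog, Pou5f1, Esrrb and others) were above background on every D3 array and on no MIN6 array, and all 10 β-cell identity genes (Ins2, Iapp, Pdx1 and others) on every MIN6 array and on no D3 array. Both identity lists were chosen with earlier results of these data known, so this outcome describes the lines and is not a test. With 3 arrays for each line, their number limits the precision of every value. The limma p-values set a difference against a spread between samples that is partly shared across all probes. This spread may in part be technical.

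Of the 7 measured member genes, Onecut2 and Prox1 were higher in MIN6 cells, Gata2 and Gata6 were lower, and Gata3, Gata4 and Gata5 were above background on no array of either line. Each of the 4 genes that differed was above background on all 3 arrays of its higher line and on none of the other. In these RNA extracts, fewer cells with a transcript and less transcript per cell cannot be told apart. These 4 of 7 genes (57.1%) compare with 34.5% called among all genes, of which 17.1% were higher and 17.5% lower. Counted as probes, 3 were higher and 2 lower of 11 (45.5%), against 25.9% of all probes (12.5% higher and 13.4% lower). No member probe was above background on all 6 arrays, as 27.1% of all probes were, and 6 of the 11 were above background on no array, against 55.7% of all probes. In 5 member probes, the same 5 that were called, the values of the lines did not overlap, against 46.1% of all probes, and so for 4 of 7 genes, against 54.4% of all genes.

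**Figure D1:**
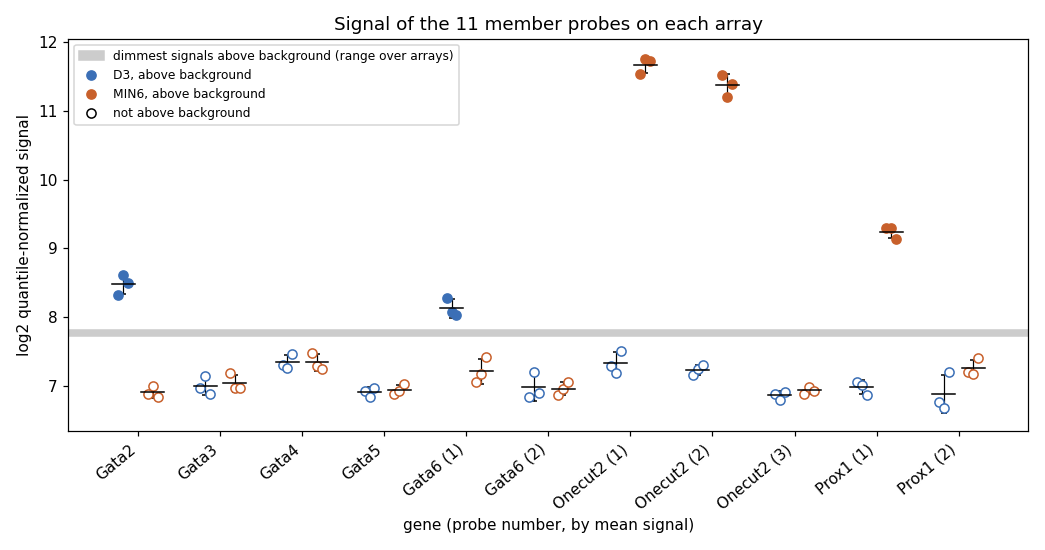
The log2 quantile-normalized signal (vertical axis) of each of the 11 member probes (horizontal axis, numbered within a gene by mean signal) on 3 D3 arrays and 3 MIN6 arrays, with the mean (line) and SD (bar). Filled points are above background and open points are not. Only Gata2 and 1 Gata6 probe have filled D3 points, and only 2 Onecut2 probes and 1 Prox1 probe have filled MIN6 points.

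Onecut2 was the member with the largest difference. By its probe of highest mean signal (ILMN_2492944), the deposited signals were 173.9, 150.8 and 152.4 for the D3 samples and 3594, 3162 and 3068.8 for the MIN6 samples. Thus every MIN6 array lay far above every D3 array, and the D3 signals were not above background (detection p of 0.062 to 0.252). After normalization, the D3 mean was 7.33 ± 0.16 on the log2 scale (SD, n = 3), and the MIN6 mean was 11.67 ± 0.12 (SD, n = 3). The fitted change was 4.34 on the log2 scale (standard error 0.11, 95% interval 4.12 to 4.57, adjusted p = 2.64e-18 from limma), giving Onecut2 a bound of at least 14.8-fold higher. The size of this fitted change exceeded that of 98.8% of all genes.

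Another Onecut2 probe gave a similar result. On ILMN_2693913, the deposited signals were 159.3, 156.2 and 134.6 in D3 and 3572.2, 2182.3 and 2496.5 in MIN6 cells, again without overlap. Its fitted change was 4.14 on the log2 scale (standard error 0.10, adjusted p = 3.47e-18 from limma), or at least 12.1-fold. The third Onecut2 probe, ILMN_2503156, which is annotated to the same transcript record as the second, was above background on no array. Its signals were between 106.3 and 138.2 on all 6 arrays, and its fitted change was 0.07 (95% interval -0.13 to 0.27). The Onecut2 probes therefore differed from each other, with 2 of 3 giving signal in MIN6 cells. Onecut3, the remaining ONECUT gene, was above background on no array by any of its 3 probes.

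Prox1 was likewise above background only on MIN6 arrays. On ILMN_2598766, the deposited signals were 148.2, 134.2 and 103 in D3 and 804.8, 599.8 and 548.5 in MIN6 cells. The MIN6 values all lay above the D3 values, which were not above background. The normalized D3 mean was 6.98 ± 0.10 on the log2 scale (SD, n = 3), against 9.24 ± 0.09 (SD, n = 3) for MIN6 cells. The fitted change was 2.26 (standard error 0.10, 95% interval 2.05 to 2.47, adjusted p = 4.11e-14 from limma), giving Prox1 a bound of at least 2.75-fold higher. The other Prox1 probe, ILMN_2894355, was above background on no array and was not called, with a fitted change of 0.37 (95% interval 0.12 to 0.63, adjusted p = 0.0174 from limma) that is smaller than 1.5-fold. Prox2, the related gene, was above background on no array and was not called.

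Gata2 was the GATA member with the larger difference, and it was lower in MIN6 cells. The deposited signals of its only probe were 350.4, 381 and 277.3 in D3 and 137.3, 118.3 and 100.4 in MIN6 cells. All D3 values were above background and above every MIN6 value, and the MIN6 values were not above background (detection p of 0.565 to 0.830). On the log2 scale the D3 mean was 8.48 ± 0.15 (SD, n = 3), and that of MIN6 cells was 6.91 ± 0.08 (SD, n = 3). The change was -1.58 on the log2 scale (standard error 0.10, 95% interval -1.79 to -1.36, adjusted p = 2.63e-11 from limma), giving Gata2 a bound of at least 1.67-fold lower. The bound sets its D3 signals against the dimmest signals above background on the MIN6 arrays, which were 7.72 to 7.78 on the log2 scale. Its D3 signals lay close to these, so the bound is much smaller than the fitted change.

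Gata6 was lower in MIN6 cells by 1 of its probes, with a smaller margin. On ILMN_2868133, the deposited signals were 340.4, 267.5 and 207 in D3 and 156.2, 133.3 and 151.9 in MIN6 cells. The D3 values were all above background and above the MIN6 values, none of which was above background. Normalized log2 means were 8.13 ± 0.14 for D3 (SD, n = 3) and 7.21 ± 0.18 for MIN6 cells (SD, n = 3). The change was -0.92 (standard error 0.11, 95% interval -1.15 to -0.69, adjusted p = 4.15e-07 from limma), and the bound was at least 1.31-fold lower, which does not reach 1.5-fold. In the authors' processed values the change of this probe was -0.55 on the log2 scale, and with the mean of both Gata6 probes it was -0.47, and in both cases the gene was not called. The other probe, ILMN_1255968, was above background on no array, with a change of -0.02 (95% interval -0.25 to 0.21).

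The sizes of these differences, but not their directions, depended on background correction. With normexp correction, the log2 changes were 6.03 for Onecut2 and 3.90 for Prox1, with bounds of at least 31.8-fold and at least 4.90-fold, and -2.95 for Gata2 and -1.94 for Gata6, with bounds of at least 2.53-fold and at least 1.70-fold. In the authors' processed values the change of Gata2 was -0.96.

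**Figure D2:**
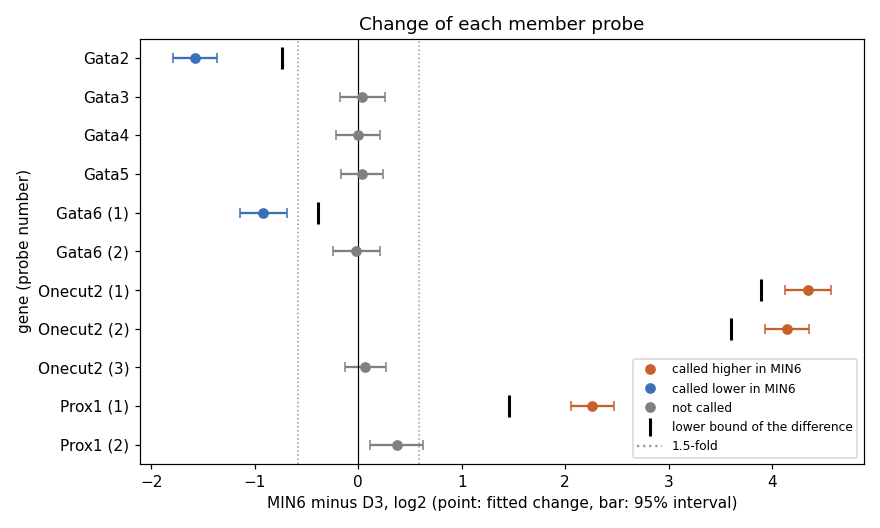
The fitted MIN6 minus D3 difference (horizontal axis, log2) of the 11 member probes (vertical axis), with 95% intervals from limma, the lower bound of each called difference as a black tick, and dotted lines at 1.5-fold. Onecut2 (1), Onecut2 (2) and Prox1 (1) lie to the right, Gata2 and Gata6 (1) to the left, and the other 6 intervals do not reach 1.5-fold except that of Prox1 (2), which extends to 0.63.

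Gata3, Gata4 and Gata5 have 1 probe each, and none was above background on any array. Gata3, a regulator of T cells and trophectoderm, had deposited signals of 139, 146.4 and 104.4 in D3 and 172.6, 116.6 and 109.5 in MIN6 cells. The lines overlapped, and the fitted change was 0.04 on the log2 scale (95% interval -0.18 to 0.26, adjusted p = 0.827 from limma). Gata4, an endoderm and heart factor, had signals of 176.9, 158.1 and 148.4 in D3 and 215.6, 144.7 and 134.3 in MIN6 cells. These also overlapped, with detection p of 0.0737 to 0.193 and a change of -0.0032 (95% interval -0.22 to 0.21, adjusted p = 0.989 from limma). Gata5, a factor of endoderm and endocardium, had signals of 135.1, 118 and 110.6 in D3 and 137.3, 113.3 and 114.2 in MIN6 cells, with a change of 0.03 (95% interval -0.17 to 0.23, adjusted p = 0.852 from limma). For these genes the arrays give no level in either line, and the intervals describe signals at background. On these arrays alone, a transcript that the probes do not detect cannot be told apart from an absent one. For Gata4 in D3 cells, the paper reports relative expression by qRT-PCR, which was higher after Suz12 knockdown.

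**Figure D3:**
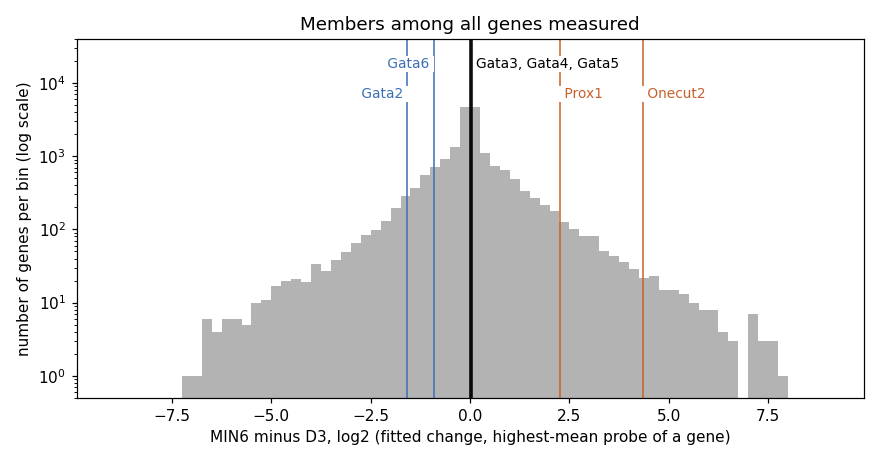
The number of genes (vertical axis, log scale) by fitted MIN6 minus D3 change (horizontal axis, log2, bins of 0.25) over 19057 genes, with lines at the 7 measured members. Onecut2 lies at 4.34 and Prox1 at 2.26 in the right tail, Gata2 at -1.58 and Gata6 at -0.92 on the left, and Gata3, Gata4 and Gata5 near 0.

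The genes nearest in pattern to each called member were found over the 6 arrays. Likeness was measured as the root mean square distance between log2 signals centered on the mean of each probe, among genes above background on every array of the higher line. For Onecut2, the nearest was Car10, a carbonic anhydrase-related gene, at a distance of 0.083, followed by Irf2, a transcription factor of the interferon response, at 0.091. For Prox1, it was Cpm, a carboxypeptidase, at 0.036, followed by Kcnk16, a potassium channel of islets, at 0.046. For Gata2, it was Tnip1, an inhibitor of NF-κB signaling, at 0.044, and for Gata6, Hnrnpu, a nuclear RNA-binding protein, at 0.059. The 6 arrays are 3 of each line, so this distance mainly compares the size of the difference between the lines.

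Trps1, which encodes a GATA-type zinc finger repressor, was the only relative of the members to give signal, and it was lower in MIN6 cells by all 3 probes. By the probe of highest mean signal, its D3 mean was 10.43 ± 0.03 on the log2 scale (SD, n = 3) and its MIN6 mean 7.91 ± 0.12 (SD, n = 3), above background on all 6 arrays. This was a 5.75-fold difference (log2 change of -2.52, adjusted p = 5.6e-15 from limma). The other Trps1 probes gave 2.41-fold and 1.69-fold lower signals, so the size depends on the probe. Gata1, the blood GATA factor, was above background on no array by either probe.

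Genes known to act with GATA factors were read beside the members. Of 18 measured, 2 were higher in MIN6 cells, 3 were lower and 13 did not pass (27.8% called, median log2 change of -0.06, against 34.5% and -0.01 over all genes). Ldb1, an adaptor that joins GATA and LIM-only proteins into complexes, was 5.88-fold lower in MIN6 cells, with mean log2 signals of 13.27 in D3 and 10.71 in MIN6 cells and an adjusted p of 8.07e-15 from limma. The LIM-only gene Lmo2 was higher in MIN6 cells by at least 4.90-fold and above background on no D3 array, whereas Lmo4, another LIM-only gene, was 2.24-fold lower. Mef2c, a partner of GATA4 in heart, was at least 1.24-fold higher, and Tcf3, which encodes E proteins, at least 1.32-fold lower. Neither of these bounds reaches 1.5-fold. The coactivator Ep300 was above background on every array, and its change of -0.31 on the log2 scale was under 1.5-fold. The GATA cofactor Zfpm2 was above background on no array, and Zfpm1 was not analysed here. Tal1, Lyl1, Fli1 and Runx1, blood partners of Gata2, were above background on no array.

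Of the genes known to act with PROX1 or ONECUT factors, more were lower than higher in MIN6 cells. Of 13 measured, 1 was higher in MIN6 cells, 5 were lower and 7 did not pass (46.2% called, median log2 change of -0.04). Over all genes, 34.5% were called, 17.1% higher and 17.5% lower, with a median of -0.01. Foxa2, the endoderm pioneer factor, was the higher gene, at least 5.60-fold, and above background on no D3 array (adjusted p = 2.34e-16 from limma). Nr5a2, a nuclear receptor whose activity PROX1 represses, was lower by at least 13.9-fold, with a mean log2 signal of 11.54 in D3 cells (adjusted p = 5.15e-19 from limma). Smad3, a TGF-β effector, was at least 3.95-fold lower, Esrra, a nuclear receptor of energy metabolism, 2.23-fold, and the histone demethylase Kdm1a 1.79-fold lower. Sox18, which acts before Prox1 in lymphatic vessels, was called lower (log2 change of -0.73) but was above background on only 1 D3 array and has no fold. Its partner Nr2f2 was above background on no array. The corepressor Hdac3 had mean log2 signals of 11.84 in D3 and 11.83 in MIN6 cells and was not called.

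Other transcription factors of pancreatic endocrine cells were mostly higher in MIN6 cells, as Onecut2 and Prox1 were. Of 22 measured, 16 were higher, 3 were lower and 3 did not pass (86.4% called, median log2 change of 2.47, against 34.5% and -0.01 over all genes). Isl1, a LIM homeodomain factor, Nkx2-2, a homeodomain factor of islets, and Insm1, a zinc finger factor, had the largest fitted changes. Isl1 was higher by at least 88.2-fold and Nkx2-2 by at least 38.6-fold. Insm1 had mean log2 signals of 7.72 in D3 and 13.72 in MIN6 cells, but only 1 of 3 D3 arrays was above background, so no fold is given. Beside the bounds of Onecut2 (at least 14.8-fold) and Prox1 (at least 2.75-fold), those of the related zinc finger genes Myt1 and St18 were at least 20.7-fold and at least 10.5-fold, and those of the paired box genes Pax4 and Pax6 at least 3.02-fold and at least 2.46-fold. The lower genes were Nr5a2, Neurog3, the endocrine progenitor factor downstream of Onecut1 (at least 1.36-fold), and Hes1, its repressor in the Notch pathway (2.94-fold). The bound of Neurog3 does not reach 1.5-fold. Sox9 and Ptf1a, factors of pancreatic progenitors, were above background on no array.

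**Figure D4:**
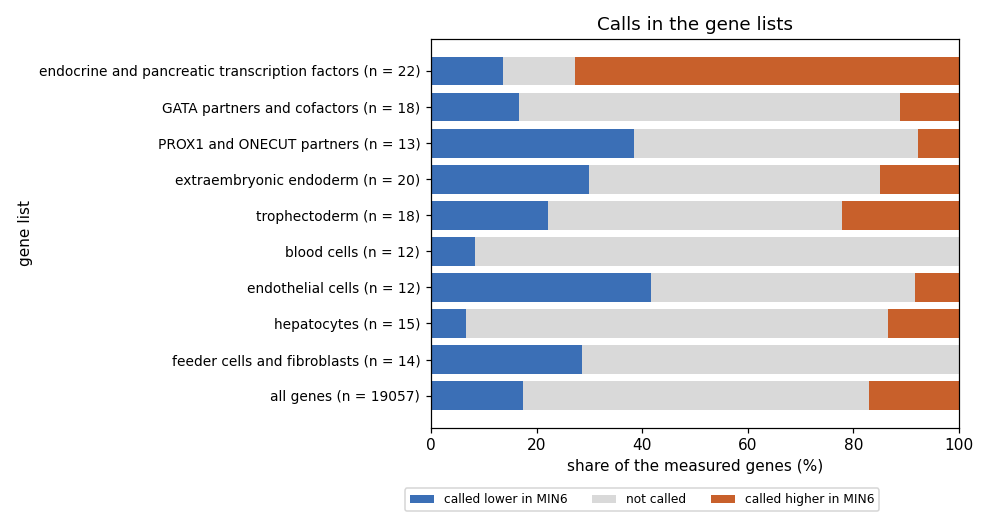
The share of measured genes (horizontal axis, %) called lower, not called and called higher in MIN6 cells in 9 gene lists and in all genes (vertical axis, with the number measured). Of the endocrine and pancreatic transcription factors, 16 of 22 were higher, whereas of the PROX1 and ONECUT partners 5 of 13 were lower.

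Since Gata6 marks primitive endoderm and Gata2 trophoblast and blood, markers of these cells were read beside the D3 signals. Of 20 extraembryonic endoderm markers, 6 were lower in MIN6 cells, 3 higher and 11 did not pass (45% called, against 34.5% of all genes). Of the 20, 8 were above background on every D3 array, as 44.5% of all genes were. Those 8 included the laminin genes Lama1 (mean log2 signal of 10.63 in D3 cells, at least 7.41-fold lower) and Lamc1 (15.1-fold lower), Sparc (at least 12.7-fold lower) and the endocytic adaptor Dab2 (at least 2.65-fold lower). The defining factors Sox17 and Sox7, and Pdgfra, were above background on no array. Summed signals here keep the background of every marker. That of this list was 13939 to 14243 on the D3 arrays and 24400 to 26664 on the MIN6 arrays. Most of the MIN6 sum was Ttr, which islets also express and which was at least 94.6-fold higher. The part of other cells in the Gata6 signal of D3 cells was not tested.

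Of 18 measured trophectoderm markers, 4 were higher in MIN6 cells, 4 lower and 10 did not pass (44.4% called, against 34.5% of all genes). Tfap2c, which ES cells also express, was lower by at least 23.7-fold and Tead4 by at least 1.53-fold, while the keratin gene Krt8 was 4.09-fold higher. Krt7, another keratin gene, was also higher, with mean log2 signals of 7.63 in D3 and 12.47 in MIN6 cells and only 1 of 3 D3 arrays above background, so no fold is given. Cdx2, the defining factor, was above background on no D3 array and was higher in MIN6 cells by at least 2.34-fold, and Elf5, Hand1, Tpbpa and Plac1 were above background on no array. The summed signal of this list was 12301 to 12498 in D3 and 15469 to 17293 in MIN6 cells. Of 12 blood cell markers, only Kit, which ES cells express, was called (lower in MIN6 cells by at least 15.8-fold), and the pan-leukocyte gene Ptprc was above background on no array. The blood list summed to 5042 to 5368 in D3 and 1752 to 1811 in MIN6 cells. None of the 12 markers was above background on any MIN6 array, so the MIN6 sum is background. Kit, with a mean log2 signal of 11.73 in D3 cells, made up most of the D3 sum. The part of blood cells in the Gata2 signal was not tested.

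Endothelial and hepatocyte markers were read beside Prox1 and Onecut2. Of 12 endothelial markers, 1 was higher in MIN6 cells and 5 were lower (50% called, against 34.5% of all genes). Lyve1, a hyaluronan receptor of lymphatic endothelium, was the higher gene, at least 6.03-fold, and above background on every MIN6 array and no D3 array (adjusted p = 1.9e-17 from limma). Pdpn, another lymphatic marker, was lower by at least 10.00-fold and Pecam1 by at least 3.95-fold, and Cdh5, Kdr and Tie1 were above background on no array. The list summed to 4974 to 5142 in D3 and 2871 to 2969 in MIN6 cells, where 11 of the 12 markers were above background on no array. Of 15 hepatocyte markers, Ttr and Apoa2 (at least 4.36-fold) were higher and Trf (at least 1.92-fold) was lower in MIN6 cells, while Alb, Apoa1, Fgb and Afp were above background on no array. The sum was 2444 to 2485 in D3 and 22551 to 24775 in MIN6 cells. Most of the MIN6 sum was Ttr alone, at 19718 to 21988 against 96.1 to 129.7 in D3 cells. Whether hepatocyte-like cells contribute was not tested.

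Neuronal genes, a further setting in which Onecut2 and Prox1 act, had 7 of 15 higher and 3 lower in MIN6 cells (66.7% called, against 34.5% of all genes). The 3 called genes of largest fitted change were all among the higher. Th, the first enzyme of catecholamine synthesis, was at least 26.0-fold higher, Syp, a vesicle protein, 42.1-fold and Dcx, a microtubule protein of young neurons, at least 20.7-fold. Tubb3 and Snap25 were above background on no array, which does not tell an undetected transcript from an absent one. Of 13 mesoderm and heart markers 1 was higher (Mef2c) and 1 lower (Myl7), both with bounds that do not reach 1.5-fold. Of 10 duct markers 2 were higher and 3 lower. Of 10 acinar markers 2 were higher (Bhlha15 and Amy2a5) and 2 lower (Cela1 and Cela2a). Of 14 fibroblast markers none was higher and 4 were lower (Fn1, Vim, Acta2 and Thy1). In that order, the shares called were 15.4%, 50%, 40% and 28.6%, against 34.5% of all genes. Amy2a5 was above background on no array and has no fold. Cela1 and Cela2a were lower by at least 1.16-fold and at least 1.11-fold, bounds that do not reach 1.5-fold.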

How the data were processed

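Total RNA from 3 D3 and 3 MIN6 samples was measured on 1 array each. The deposited signals are linear intensities, not normalized by the authors (array medians 134 to 188). The deposited detection score runs opposite to its header, being 1 minus the p-value, and was turned around. The authors' processed log2 values, quantile-normalized with lumi per the paper's methods, with the transformation before that not given in the sources used here, were one of the alternatives. Intensities were quantile-normalized, taken to log2 and fitted with limma 3.58.1 (lmFit and eBayes, no block) in R 4.3.3. For a gene with several probes, the probe of highest mean log2 signal stood for the gene. Probe symbols came from the platform annotation (34885 probes with 1 symbol, 18 with several, 10378 with none), updated through Entrez IDs in the RefSeq table (78 not found). A lower bound takes, on each array of the dim line, the higher of the probe's own signal and the lowest signal above background. Alternatives were, for normalization, neqc (normexp, offset 16), scaling to the median, cyclic loess and the authors' values. For the fit they were filters on detection (p under 0.01 on at least 3 arrays, or under 0.05 on at least 1), a robust trended prior, a block on the replicate number, the methods' t-test and leaving out each array. For the call they were a threshold of 2-fold or none, and averaging the probes of a gene. No slide is given in the files, so a slide block was not run. Steps were tested on simulated data. Figures used matplotlib 3.10.9 in Python 3.11.15.

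The members and the gene lists were chosen with earlier results of these data known. Named genes are all members and relatives, up to 3 called genes of largest fitted change in each list, 10 preselected partners and markers, and the nearest genes by pattern. Others were named after their values were seen, among them Mef2c, Tcf3, Ep300, Tal1, Esrra, Kdm1a, Neurog3, Hes1, Myt1, St18 and the genes listed as not above background.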

Additional observations from a re-analysis of the deposited data

How the results depend on the processing

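Of 90 values of the called member probes under the alternatives, 88 kept their direction and their call, and the exceptions were both for Gata6, in the authors' processed values (-0.55 on the log2 scale) and at a threshold of at least 2-fold (-0.92). Both settings left 1 member probe and 1 member gene called lower, and averaging the probes of each gene also left 1 member gene. The detection filters, robust trended prior, replicate block, t-tests and fold thresholds left the log2 change as in the main fit. For these, only the call could differ, and without a fold threshold no call could be lost. The called member probes passed both detection filters through the arrays of their higher line alone. Their passing was therefore fixed in advance and is no support for the calls. Direction could differ only in the other normalizations, the authors' values and the fits without 1 array. Normexp background correction gave larger changes: -2.95 for Gata2, -1.94 for Gata6, 6.03 and 5.93 for the Onecut2 probes and 3.90 for Prox1, and bounds of up to at least 31.8-fold for Onecut2 and at least 4.90-fold for Prox1. The authors' values gave smaller changes, down to 3.64 and 3.40 for Onecut2, 1.53 for Prox1 and -0.96 for Gata2, with a bound of at least 1.42-fold. Without 1 array at a time, the changes ranged from -1.66 to -1.52 for Gata2, -0.999 to -0.821 for Gata6, 4.27 to 4.45 and 4.06 to 4.23 for Onecut2, and 2.20 to 2.31 for Prox1.

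Probes not above background changed sign near 0 and were not called. These were Gata4 with median scaling (0.0082) and cyclic loess (0.00098), and without 1 array at a time, over ranges of -0.0698 to 0.0577 for Gata4, -0.0305 to 0.115 for Gata3, -0.0071 to 0.0663 for Gata5 and -0.0923 to 0.0944 for the dim Gata6 probe. With no fold threshold the dim Prox1 probe was called. Over all probes, 8525 were higher and 9455 lower with no fold threshold, and 3567 and 3610 at 2-fold, against 5649 and 6068. The methods' t-test called 5634 higher and 6058 lower at the unadjusted threshold, and 5518 and 5934 after Benjamini-Hochberg adjustment. This t-test uses each probe's own spread. Its adjusted p was 0.000133 for Onecut2 (ILMN_2492944), 0.000232 for Prox1 (ILMN_2598766), 0.000855 for Gata2 and 0.00982 for Gata6 (ILMN_2868133). GATA partners called higher fell to 1 in the authors' values, for a 2-fold threshold and with probes averaged, and those called lower rose to 5 with no fold threshold. Equal replicate numbers did not pair the samples (deviations correlated at r = -0.0226 to 0.0099), and the replicate block left 3 member probes higher and 2 lower and changed no call of a member, nor the counts for GATA partners, endocrine factors and the other lists pooled. Signal over background limits all 4 called member genes, whose bounds are below the fitted changes.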
